A study of Homo sapiens with 9 samples.

Results

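The EGF family genes described here are 6 ligands (AREG, EREG, HBEGF, TGFA, BTC and NRG1), 3 receptors (EGFR, ERBB2 and ERBB3) and the EGFR inhibitor ERRFI1. They were chosen as a list of 10 symbols out of the 64253 gene identifiers counted, and each symbol had 1 identifier. RNA was sequenced from IMR90 cells, human fetal lung fibroblasts with a limited lifespan in culture, in 3 groups of 3 libraries lettered a, b and c. The control group carried a lentiviral vector without a hairpin, called an empty vector in the sample labels and a GFP vector in the treatment protocol. Cells labelled shRRM2 carried a hairpin that targets RRM2, a subunit of the ribonucleotide reductase that makes deoxynucleotides, a knockdown the submitters describe as inducing senescence. Cells labelled shRRM2/shp16 received that hairpin and another that targets p16, a cell cycle inhibitor and product of CDKN2A, a combination they describe as bypassing senescence. Cells of all groups were grown in 2% oxygen, used at population doubling 30, infected a second time after 24 hours and selected in puromycin for 7 days. No library with the p16 hairpin alone was analysed here, and each of the 3 comparisons shares its libraries with the other two. The labels do not say that replicates were separate infections, so p-values measure the spread between these libraries, which may be technical.

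EGF family ligands are made as membrane-anchored precursors and are released by metalloproteases such as ADAM17. AREG, EREG, HBEGF, TGFA and BTC bind EGFR, and some of them also ERBB4, while NRG1 binds ERBB3 and ERBB4. ERBB2 has no known ligand and acts as the partner of the other receptors, which signal as pairs through RAS, ERK and PI3K. ERRFI1, also called MIG6, is induced by that signalling and binds the kinase domain of EGFR to switch it off. In fibroblasts, secreted AREG and EREG are known as parts of the mix of factors that some senescent cultures release.

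The libraries held 15770895 (shRRM2 replicate a) to 24873291 (control replicate a) gene counts. RRM2 was at 485 ± 5.23 CPM (counts scaled to library size with TMM factors; mean ± SD, n = 3) in the control, 62.1 ± 1.86 in shRRM2 and 177 ± 3.00 in shRRM2/shp16. CDKN2A was at 6.02 ± 0.11, 6.50 ± 0.46 and 4.28 ± 0.32 CPM in the same order, summed over its p16 and ARF transcripts. The part of the RRM2 difference between the hairpin groups in the results was not tested. The 10 fibroblast markers checked summed to 34344 to 35527 CPM in the control, 31648 to 32619 in shRRM2 and 28930 to 29696 in shRRM2/shp16. None was at or under 3 counts. Single markers moved both ways, with VIM at 5334, 3525 and 2136 CPM and PDGFRA at 263, 187 and 709 in the same order. Epithelial markers summed to 23.9 to 25.2 CPM in the control, 12.1 to 13.4 in shRRM2 and 3.29 to 5.21 in shRRM2/shp16, with KRT5 and SFTPC at 0 in every library and KRT14 at most 3 counts. CLDN4 alone carried that fall, at 22.9, 10.7 and 2.37 CPM, while EPCAM was at 1.23, 1.27 and 1.07 and CDH1 at 0.317, 0.693 and 0.505. Endothelial markers summed to 115 to 124 CPM in shRRM2/shp16 and 65.3 to 73.0 in the other groups, nearly all of it TEK (65.2, 67.4 and 115 CPM by group), with CDH5 at most 3 counts. Blood markers summed to 2.31 to 3.27 CPM, with PTPRC, CD3E and HBB at most 3 counts. Of the uniquely aligned reads, the share outside annotated genes was 17.6% to 18.9% in the control, 27.7% to 28.8% in shRRM2 and 23.5% to 24.4% in shRRM2/shp16. The part of these marker sums and shares in the results was not tested. In bulk RNA, fewer cells of a type and less RNA per cell cannot be told apart.

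AREG and EREG, neighbouring genes that encode the ligands amphiregulin and epiregulin, stayed low in shRRM2 and were about 20 times higher in shRRM2/shp16. AREG lies on the plus strand of chromosome 4 at 74445134 to 74455009 (GENCODE release 29, GRCh38), and EREG lies 80.0 kb before it at 74365143 to 74388751. AREG measured 23.6, 20.9 and 20.02 CPM in control libraries a, b and c, then 22.6, 24.3 and 20.5 in shRRM2, and 440, 434 and 433 in shRRM2/shp16. The control and shRRM2 libraries overlapped, and every shRRM2/shp16 library stood far above both. AREG was 19.4-fold higher in shRRM2/shp16 than in shRRM2 (log2 fold change 4.27 ± 0.05 SE, edgeR adjusted p = 1.2e-46) and 20.1-fold higher than in the control. Between shRRM2 and control its log2 fold change was 0.05 ± 0.07 (95% interval -0.08 to 0.18, edgeR adjusted p = 0.494), which did not pass the threshold. EREG measured 19.0, 22.2 and 21.8 CPM in the control, 16.1, 15.8 and 17.1 in shRRM2, and 340, 351 and 350 in shRRM2/shp16. Its shRRM2 libraries lay below every control library, and the shRRM2/shp16 libraries above all others. EREG fell to 78.4% of control in shRRM2 (log2 fold change -0.35 ± 0.07, edgeR adjusted p = 2.1e-05), and was 21.2-fold higher in shRRM2/shp16 than in shRRM2 (4.41 ± 0.05, adjusted p = 1.3e-46) and 16.6-fold higher than in the control (4.06 ± 0.04). The fall of EREG in shRRM2 was lost with limma on the authors' RPKM values, where the log2 fold change was 0.04 at an adjusted p of 0.903 with a pseudocount of 0.1 (range over all alternatives 5e-08 to 0.903). It held on the 8 columns of that table that match their count files. The deposited RPKM column of shRRM2 replicate c gave EREG at 2.11 times and AREG at 2.70 times the level in the count file of that library, and which of them is the intended version is not known here. With all 9 deposited columns, limma put AREG in shRRM2 at 0.58 over control on the log2 scale (pseudocount 0.1, adjusted p = 0.105, range over all alternatives 0.0338 to 0.986), outside the interval from the counts, and at 0.17 on the 8 matching columns.

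The 250 bases before the AREG and EREG start sites are shown because, of the family genes, these adjacent ligands rose most between the hairpin groups, and those of ERRFI1 because it fell there. They come from the RefSeq promoter table on GRCh38.p14, in which 8 of the 10 genes had an entry. AREG spans chr4:74444886-74445135 (plus strand), EREG chr4:74364895-74365144 (plus strand) and ERRFI1 chr1:8026310-8026559 (minus strand), each written 5′ to 3′. Capitals mark motif matches.
AREG: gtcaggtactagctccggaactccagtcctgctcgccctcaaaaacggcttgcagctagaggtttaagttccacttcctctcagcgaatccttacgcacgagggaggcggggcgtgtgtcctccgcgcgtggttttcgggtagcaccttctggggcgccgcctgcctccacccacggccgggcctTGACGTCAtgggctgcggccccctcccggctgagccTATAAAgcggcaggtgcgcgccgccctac
EREG: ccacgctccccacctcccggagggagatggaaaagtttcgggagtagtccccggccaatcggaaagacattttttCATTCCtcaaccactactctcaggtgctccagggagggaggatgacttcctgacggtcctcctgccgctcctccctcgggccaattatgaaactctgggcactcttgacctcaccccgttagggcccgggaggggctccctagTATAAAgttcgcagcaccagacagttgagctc
ERRFI1: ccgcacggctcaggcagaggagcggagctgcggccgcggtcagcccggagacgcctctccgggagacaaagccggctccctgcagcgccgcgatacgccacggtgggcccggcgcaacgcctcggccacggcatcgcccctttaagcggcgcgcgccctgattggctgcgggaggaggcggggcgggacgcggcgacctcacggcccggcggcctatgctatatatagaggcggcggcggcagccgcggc
The motifs searched were TATAAA on the sense strand and, on both strands, TGANTCA (AP-1), TGACGTCA (cyclic AMP response element), GGAATG (TEAD), the kappaB motif and the CArG box. AREG and EREG both hold TATAAA, starting 29 and 32 bases before the start site, a match found in 6.80% of the 35116 promoters in the table. AREG also holds TGACGTCA 65 bases before its start, found in 1.65% of promoters, and EREG holds GGAATG read on the other strand at 175 bases, found in 11.9%. EGFR, which moved by less, had TATAAA matches too, at 36 and 146 bases, and the GGAATG match at 114 bases. The start site behind each EGFR match was not recorded, so these matches may lie before different starts of the gene. ERRFI1 holds none of these motifs in its window. Only the exact letters TATAAA were searched, so the TATATATA near the end of the ERRFI1 window is not marked. The G and C content was 65.2% in AREG, 58.0% in EREG and 75.2% in ERRFI1, against a median of 58% over all promoters. These matches describe letters only, and no binding was measured.

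NRG1, which encodes neuregulin ligands for ERBB3 and ERBB4, rose in steps over the 3 groups. The gene spans 31639386 to 32767959 on the plus strand of chromosome 8. It measured 29.8, 30.3 and 28.6 CPM in the control, 58.8, 60.4 and 60.2 in shRRM2, and 344, 340 and 344 in shRRM2/shp16. No library of a group overlapped those of another. NRG1 was 2.02-fold higher in shRRM2 than in the control (log2 fold change 1.02 ± 0.05, edgeR adjusted p = 5.1e-23). In shRRM2/shp16 it was 5.73-fold higher than in shRRM2 (2.52 ± 0.03, edgeR adjusted p = 2.6e-42) and 11.6-fold above the control. NRG1 thus rose already with the RRM2 hairpin alone, where AREG did not pass the threshold and EREG fell.

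HBEGF, a heparin-binding ligand of EGFR and ERBB4, varied little. The gene lies on the minus strand of chromosome 5 at 140332843 to 140346631. It measured 20.8, 19.8 and 20.4 CPM in the control, 21.5, 22.2 and 25.0 in shRRM2, and 20.4, 20.02 and 20.2 in shRRM2/shp16. Only shRRM2 stood apart, and its replicate c was the highest library of all in the counts. The deposited RPKM column of that library gave HBEGF at 0.815 times the level from its counts. HBEGF was 1.13-fold higher in shRRM2 than in the control (log2 fold change 0.17 ± 0.07, edgeR adjusted p = 0.0287), but the adjusted p was 0.209 without shRRM2 replicate c and 0.0593 with DESeq2, over a range of 0.00637 to 0.209 in all alternatives. In shRRM2/shp16 it fell to 88.0% of shRRM2 (-0.18 ± 0.07, edgeR adjusted p = 0.0199), a call also lost without shRRM2 replicate c (adjusted p = 0.188, range 0.0109 to 0.755). It could not be told from the control in shRRM2/shp16 (-0.01 ± 0.07, 95% interval -0.15 to 0.13, edgeR adjusted p = 0.894), and the sign of that difference turned with library totals as the only scaling.

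TGFA and BTC, encoding transforming growth factor alpha and betacellulin, were near the limit of counting. TGFA, on the minus strand of chromosome 2 at 70447280 to 70554193, had 3 to 6 counts per control library, 13 to 16 in shRRM2 and 0 to 4 in shRRM2/shp16. It passed the low-count filter only through the shRRM2 group, where it is high, so its differences from that group are favoured by the filter. Its mean level was 0.239 ± 0.066 CPM in the control, 0.850 ± 0.059 in shRRM2 and 0.102 ± 0.0996 in shRRM2/shp16. On the log2 scale the fitted fold change was 1.80 (95% interval 0.92 to 2.69, edgeR adjusted p = 0.00045) in shRRM2 over control and -2.95 (95% interval -4.01 to -1.89, adjusted p = 4.8e-06) in shRRM2/shp16 over shRRM2. The latter ranged with 1 library, at -3.83 without shRRM2/shp16 replicate b and -2.41 without replicate c. Between shRRM2/shp16 and control the interval ran from -2.52 to 0.22 (edgeR adjusted p = 0.139). BTC, on the minus strand of chromosome 4 at 74744759 to 74794686, had 1 count in each control library, 0 to 3 in shRRM2 and 2 to 6 in shRRM2/shp16, and was not tested.

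**Figure D1:**
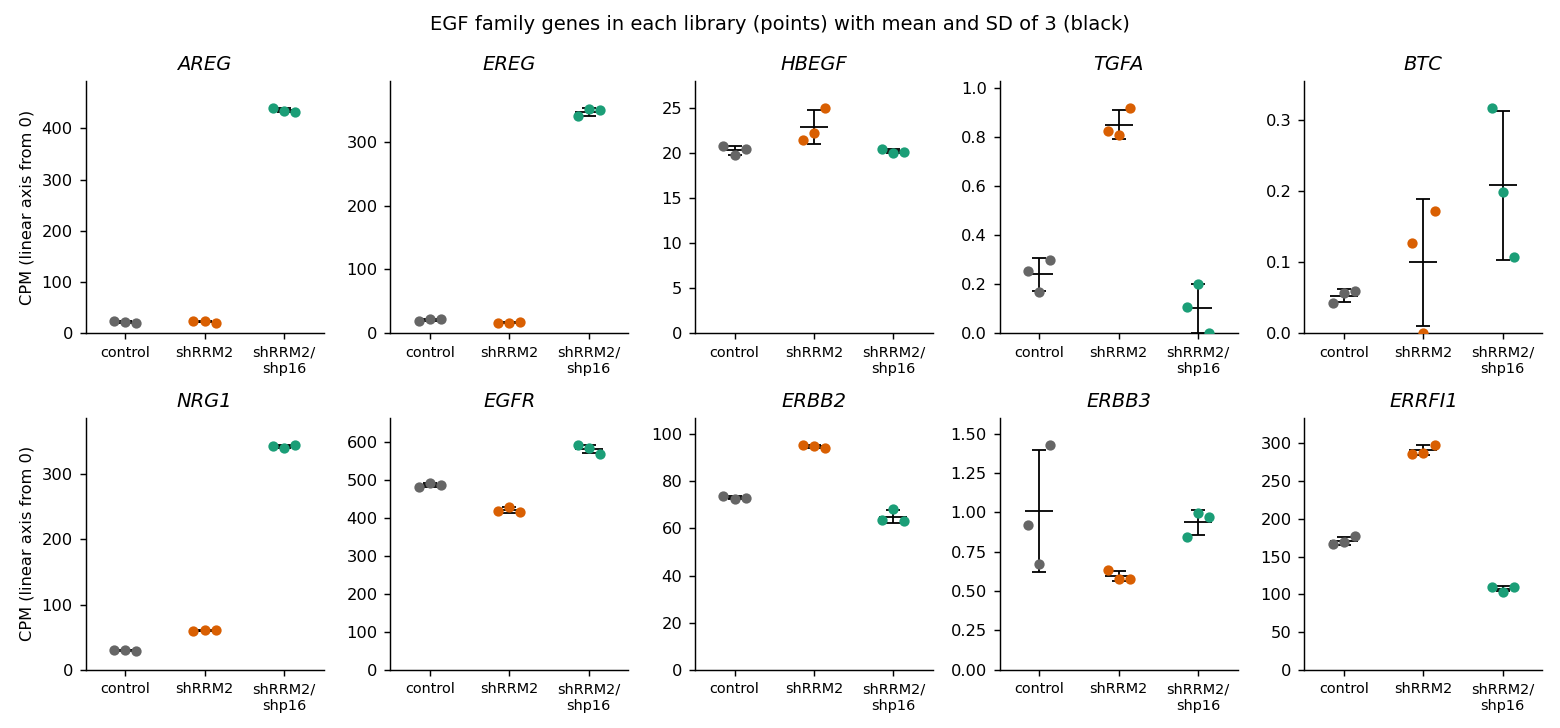
Level of each EGF family gene in CPM (y axis, a linear scale that starts at 0 and differs between panels) in the 3 groups (x axis). Points are single libraries, and the bar and whiskers give the mean and SD of 3 libraries. AREG, EREG and NRG1 reach their highest levels in shRRM2/shp16, while ERBB2, ERRFI1 and TGFA peak in shRRM2.

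EGFR was the most abundant receptor and moved by modest amounts in both directions. The gene lies on the plus strand of chromosome 7 at 55019021 to 55211628. It measured 480, 492 and 486 CPM in the control, 419, 430 and 415 in shRRM2, and 591, 584 and 569 in shRRM2/shp16. The 3 groups did not overlap, with shRRM2 lowest and shRRM2/shp16 highest. EGFR fell to 86.7% of control in shRRM2 (log2 fold change -0.21 ± 0.03, edgeR adjusted p = 9.4e-09), a call lost with limma on all 9 deposited RPKM columns (adjusted p 0.132 to 0.136, range over all alternatives 2e-17 to 0.136). It was 1.38-fold higher in shRRM2/shp16 than in shRRM2 (0.47 ± 0.03, edgeR adjusted p = 1.9e-19) and 1.20-fold higher than in the control (0.26 ± 0.03, adjusted p = 1.3e-11).

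ERBB2, the receptor that needs a partner, moved opposite to EGFR in all 3 comparisons. It lies on the plus strand of chromosome 17 at 39687914 to 39730426, where PGAP3 and MIEN1 overlap it on the other strand. As the strand setting of the counting is not given, reads there may have been set aside as ambiguous or assigned to the wrong gene. It measured 73.7, 72.4 and 73.0 CPM in the control, 95.5, 94.9 and 94.2 in shRRM2, and 63.7, 68.1 and 63.0 in shRRM2/shp16. All shRRM2 libraries lay above, and all shRRM2/shp16 libraries below, those of the control. ERBB2 in shRRM2 was at 129.9% of control (log2 fold change 0.38 ± 0.04, edgeR adjusted p = 6e-11) and fell to 68.5% of shRRM2 in shRRM2/shp16 (-0.55 ± 0.04, adjusted p = 1.3e-15). Its level in shRRM2/shp16 was 88.9% of control (-0.17 ± 0.04, edgeR adjusted p = 0.00046), a call lost with library totals as the only scaling (adjusted p = 0.171) and with limma on the RPKM values (0.188 to 0.625), over a range of 6e-05 to 0.625 in all alternatives. ERBB3, the kinase-impaired neuregulin receptor on the plus strand of chromosome 12 at 56076799 to 56103505, was scarce, with 12 to 24 counts in control libraries, 10 in each shRRM2 library and 16 to 20 in shRRM2/shp16. Its level was 1.01 ± 0.39, 0.595 ± 0.034 and 0.936 ± 0.080 CPM in that order. None of its comparisons passed the threshold in the fit of all 9 libraries. The log2 fold change in shRRM2 was -0.74 with a 95% interval of -1.42 to -0.05 (edgeR adjusted p = 0.0563), and it did pass without control replicate b (adjusted p = 0.0241) and with at least 10 counts in every library (adjusted p = 0.0458), over a range of 0.0241 to 0.313 in all alternatives. Without control replicate c it was -0.45, the value with the adjusted p of 0.313.

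ERRFI1, the feedback inhibitor of EGFR, was highest in shRRM2 and lowest in shRRM2/shp16. It lies on the minus strand of chromosome 1 at 8004404 to 8026308. It measured 167, 169 and 177 CPM in the control, 287, 288 and 298 in shRRM2, and 110, 104 and 109 in shRRM2/shp16. The groups did not overlap. ERRFI1 rose 1.70-fold in shRRM2 over control (log2 fold change 0.77 ± 0.03, edgeR adjusted p = 3.6e-24). In shRRM2/shp16 it fell to 37.0% of shRRM2 (-1.44 ± 0.03, edgeR adjusted p = 8.6e-34) and to 63.0% of control (-0.67 ± 0.03, adjusted p = 4e-21). The direction was thus opposite to that of EGFR in each comparison.

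**Figure D2:**
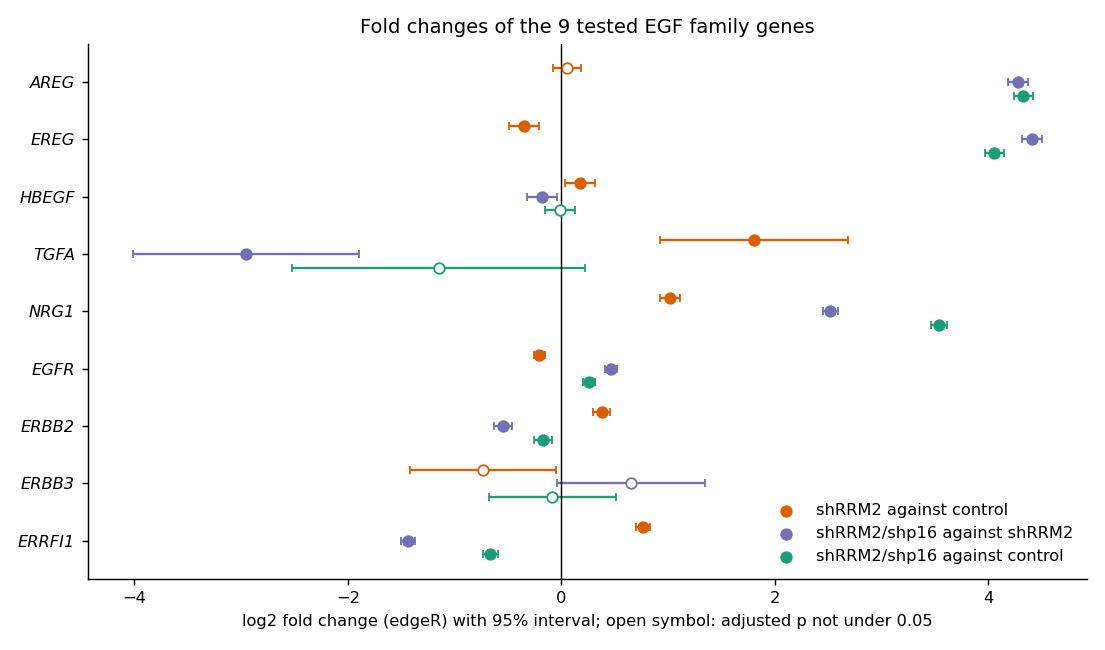
Fitted log2 fold change (edgeR) of the 9 tested EGF family genes in the 3 comparisons, with 95% intervals as bars and open symbols where the adjusted p was not under 0.05. AREG, EREG and NRG1 lie at 4.27, 4.41 and 2.52 in shRRM2/shp16 over shRRM2, and the widest intervals belong to the sparsely counted TGFA and ERBB3.

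Most genes in these libraries passed the threshold, so the number of family genes that did is not distinctive. In shRRM2 against control, 60.9% of the 16561 tested genes were called (29.0% higher and 31.8% lower), and of the 9 tested family genes 5 rose, 2 fell and 2 did not pass. In shRRM2/shp16 against shRRM2, 61.1% of genes were called (31.9% higher and 29.1% lower), and 4 family genes rose, 4 fell and 1 did not pass. In shRRM2/shp16 against control, 62.4% were called (30.0% higher and 32.4% lower, or 38.1% and 25.8% with library totals as the only scaling), and 4 family genes rose, 2 fell and 3 did not pass. Of all 10 family genes, 8, 9 and 7 had groups that did not overlap in these comparisons, beside 63.6%, 64.7% and 66.2% of all tested genes. The 7 include BTC, which was not tested and had 1 count in each control library, and the 8 and the 9 include TGFA. Leaving out TGFA, which passed the filter through 1 group, the calls were 6, 7 and 6 of 8. Over all tested genes, the log2 fold changes had medians of 0.00, 0.01 and 0.01 in the 3 comparisons. From the 5th to the 95th percentile, genes ranged from -1.15 to 1.02 in shRRM2/shp16 against shRRM2. AREG, EREG and NRG1 lay above that range while ERRFI1 lay below it. TGFA is not placed against the range because it passed the filter only through shRRM2, where it is high.

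Levels per gene length allow the family genes to be ordered within a group. On the RPKM scale (CPM divided by gene length in kilobases, with the lengths implied by the authors' table), the control order was ERRFI1 at 40.8 ± 1.34, EGFR at 37.5 ± 0.45, AREG at 13.0 ± 1.13, ERBB2 at 7.08 ± 0.06 and HBEGF at 6.74 ± 0.17. NRG1 at 3.86 ± 0.11 and EREG at 3.68 ± 0.31 RPKM followed and overlapped, with ERBB3, TGFA and BTC lowest at 0.116, 0.0482 and 0.0186. In shRRM2 the order began in the same way, with ERRFI1 at 69.5, EGFR at 32.5, AREG at 13.6 and ERBB2 at 9.19 RPKM. NRG1 at 7.81 and HBEGF at 7.59 RPKM then overlapped, above EREG at 2.86. In shRRM2/shp16 the ligands led, with AREG at 264 ± 2.41 and EREG at 60.7 ± 1.06 RPKM. EGFR at 44.9 ± 0.87 and NRG1 at 44.7 ± 0.31 RPKM overlapped, followed by ERRFI1 at 25.7 ± 0.83, HBEGF at 6.69 and ERBB2 at 6.29. ERBB3, BTC and TGFA were lowest there, at 0.108, 0.0738 and 0.0205 RPKM, and overlapped in that order. The 6 ligands summed to 27.4 ± 0.99 RPKM in the control, 32.1 ± 0.73 in shRRM2 and 376 ± 1.55 in shRRM2/shp16. AREG made up 47.6%, 42.5% and 70.2% of that sum in the same order, and HBEGF 24.6%, 23.7% and 1.78%. EREG held 13.5%, 8.91% and 16.1%, and NRG1 14.1%, 24.3% and 11.9%. HBEGF thus took a smaller share in shRRM2/shp16 at nearly the control level. The 3 receptors summed to 44.7, 41.8 and 51.3 RPKM, and EGFR held 83.9%, 77.8% and 87.5% of that.

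**Figure D3:**
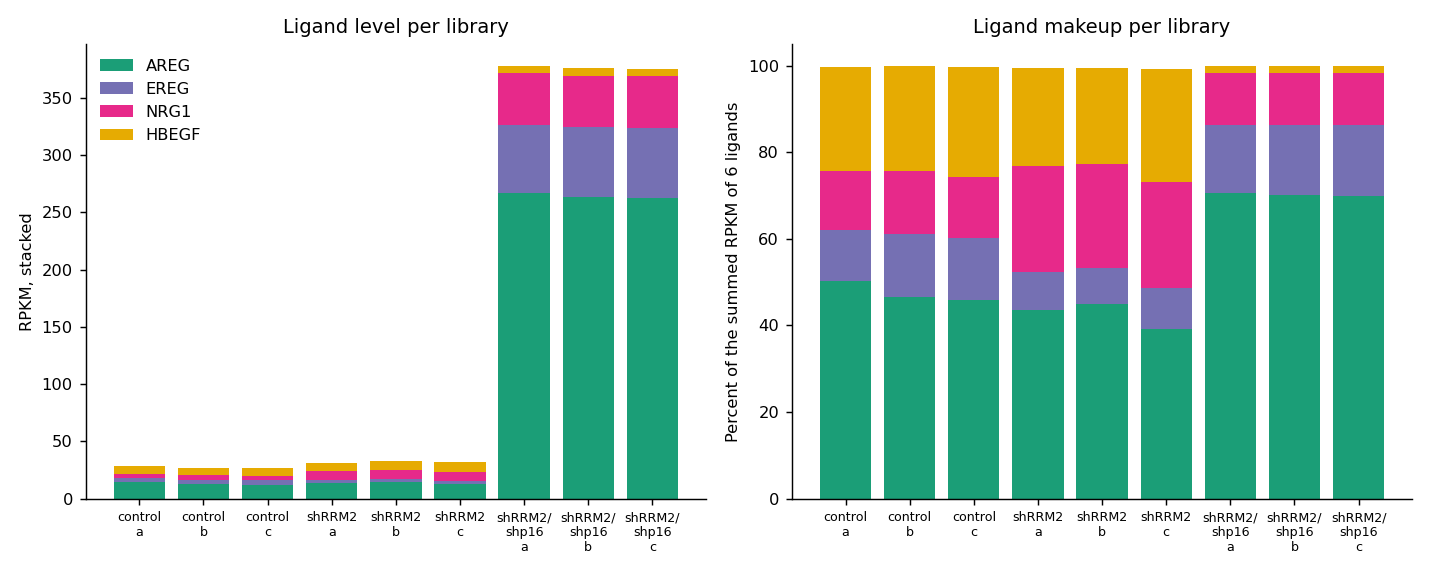
Stacked levels of AREG, EREG, NRG1 and HBEGF in each of the 9 libraries (x axis), in RPKM (left) and as the percent of the summed RPKM of all 6 ligands (right), both from 0. TGFA and BTC are not drawn, being too low to be seen, and the left bars of shRRM2/shp16 reach a mean sum of 376 RPKM, of which AREG is 70.2%.

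AREG, EREG and BTC sit in a stretch of chromosome 4 that also holds the CXC chemokine genes. From RASSF6 to PARM1 (73571550 to 75050115, 1479 kb) the annotation has 16 protein-coding genes, of which 11 were tested. CXCL6 and PF4V1 passed the low-count filter only through shRRM2/shp16, where they are high, so they are left out of the counts that follow. Of the other 9, all were called higher in shRRM2/shp16 than in shRRM2, beside 31.9% of all tested genes called higher at any size. Of these 9, 8 were at least 2-fold higher. The 9 had a median log2 fold change of 6.26, against a median of 0.01 and a 95th percentile of 1.02 over all tested genes. Against the control all 9 were called higher as well, beside 30.0% of all tested genes at any size. Each was at least 2-fold higher, at a median of 4.33, where the 95th percentile of all tested genes was 1.17. The 9 include AREG and EREG, and the list was chosen with earlier results of these data known. These counts thus describe the stretch and are no separate support. AREG and EREG, at 4.27 and 4.41 over shRRM2, were below the 5 chemokine genes among the 9, from CXCL8 at 6.26 to CXCL1 at 8.17, but CXCL2 had only 3 to 5 counts per shRRM2 library and CXCL3 2 to 11. That order did not hold against the control, where CXCL2 at 4.21 lay below AREG at 4.33. MTHFD2L, a mitochondrial folate enzyme gene between the chemokines and EREG, was at 1.11 over shRRM2, and PARM1, 488 kb beyond the AREG start, at 0.37. PF4V1, left out above, had 0 counts in every shRRM2 library and 10 to 19 per shRRM2/shp16 library, and no fold is given for it. BTC (0 to 6 counts per library), 350 kb beyond the AREG start, and EPGN (0 to 4 counts), another ligand gene 137 kb before it, were too low to test, as were RASSF6, PF4 and PPBP. In shRRM2 against control, 2 of the 9 rose, 3 fell and 4 did not pass, at a median of 0.14, beside 29.0% of all tested genes called higher and 31.8% lower. PARM1 was among those higher there at 2.34, and CXCL2 among those lower at -2.80. Reads shared by the closely similar CXCL1, CXCL2 and CXCL3 could be split or dropped by the counting, so their values are uncertain.

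**Figure D4:**
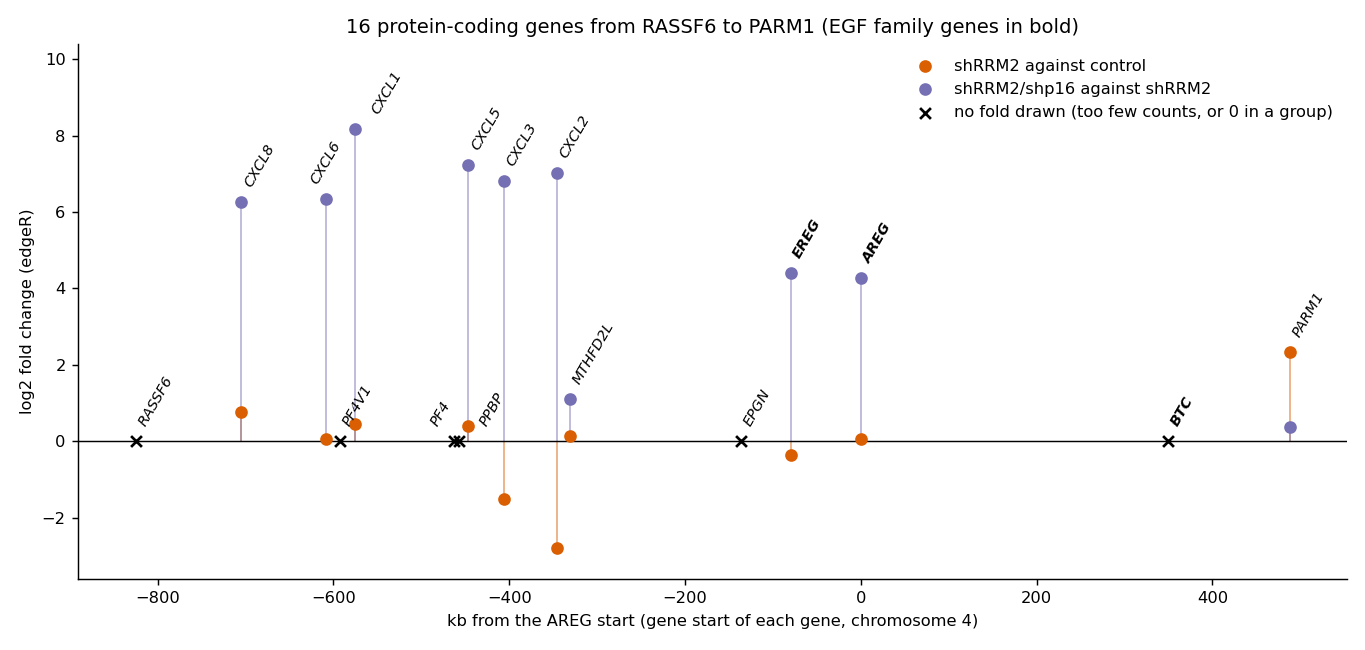
Log2 fold change (y axis, edgeR) of the protein-coding genes from RASSF6 to PARM1 against the distance of each gene's start from the AREG start in kb (x axis). Purple points compare shRRM2/shp16 with shRRM2, orange points shRRM2 with control, and crosses mark genes with too few counts or 0 counts in a group. CXCL6 passed the low-count filter only through shRRM2/shp16. Purple points lie above 0 for each gene drawn, and orange points lie on both sides of 0.

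Of the other EGF family genes EGF, EPGN, NRG2, NRG3, NRG4 and ERBB4, only EGF had counts enough to test. EGF, the founding ligand, was at 2.58 ± 0.28 CPM in the control, 3.52 ± 0.08 in shRRM2 and 0.902 ± 0.05 in shRRM2/shp16. It rose in shRRM2 (log2 fold change 0.43, edgeR adjusted p = 0.0272) and fell by 1.96 on the log2 scale in shRRM2/shp16 against shRRM2. ERBB4, the other neuregulin receptor, had 1 to 6 counts per library.

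Among 10 genes of ligand shedding, 6 rose, 2 fell and 2 did not pass in shRRM2 against control, at a list median of 0.21 on the log2 scale, beside 29.0% of all tested genes called higher and 31.8% lower. In shRRM2/shp16 against shRRM2, 2 rose, 5 fell and 3 did not pass, with a median of -0.11, beside 31.9% and 29.1% of all tested genes. ADAM19, a membrane protease, rose from 432 CPM in the control to 984 in shRRM2 (1.19 on the log2 scale) and fell to 321 in shRRM2/shp16 (-1.62). RHBDF2, a carrier of ADAM17, rose by 0.78 in shRRM2, while ADAM12 fell by 0.72 there. ADAM17, the main protease that releases AREG, rose from 52.2 CPM in shRRM2 to 69.1 in shRRM2/shp16 (0.41 on the log2 scale). ADAM12 rose by 0.43 in that comparison. TIMP3, which inhibits ADAM17, fell there from 27.0 to 7.22 CPM (-1.90). It is counted among the 5 that fell and enters the median, although it acts against shedding.

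The receptor attenuation list gathers regulators of receptor removal, dephosphorylation or signalling, which need not all act in the same direction. Signal relay genes carry the signal inward. Both lists are given beside the same shares of all tested genes. These are 29.0% higher and 31.8% lower in shRRM2 against control, then 31.9% and 29.1% in shRRM2/shp16 against shRRM2. Of 15 receptor attenuation genes tested, 4 rose, 8 fell and 3 did not pass in shRRM2 (median -0.10), and 6 rose, 3 fell and 6 did not pass in shRRM2/shp16 against shRRM2 (median 0.03). CBLB, a ubiquitin ligase, was at 0.48 and UBASH3B at -0.58 on the log2 scale in the first comparison. SPRY1, an inhibitor of receptor signalling, at 1.27 and LRIG1, which promotes EGFR loss, at 0.63 were the highest in the second, and LRIG2 was the lowest at -0.40. The 28 tested signal relay genes held 8 that rose, 5 that fell and 15 that did not pass in shRRM2 (median -0.02), and 9, 8 and 11 in shRRM2/shp16 against shRRM2 (median -0.02). None reached a 2-fold change in either comparison. GAB2, a docking protein, was highest in the second at 0.92.

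Of 22 tested genes known to respond to ERK, 8 rose, 11 fell and 3 did not pass in shRRM2 against control (median -0.09), beside 29.0% of all tested genes called higher and 31.8% lower, with the ERK phosphatases DUSP4 and DUSP6 highest at 1.21 and 0.75 and FOS lowest at -1.08. In shRRM2/shp16 against shRRM2, 11 rose, 10 fell and 1 did not pass (median 0.13), beside 31.9% and 29.1% of all tested genes at any size. Of the 22, 4 rose and 3 fell at least 2-fold, where the 5th and 95th percentiles of all tested genes were -1.15 and 1.02. LIF, a cytokine, rose from 117 to 421 CPM (1.84) and the transcription factor gene FOS from 3.63 to 11.6 CPM (1.68). DUSP5, another ERK phosphatase, fell from 53.8 to 17.0 CPM (-1.67), and CCND1, encoding cyclin D1, from 1974 to 714 CPM (-1.47). Against the control, 10 rose, 10 fell and 2 did not pass, beside 30.0% and 32.4%, with DUSP4 highest at 2.85 and FOSL1 lowest at -1.93.

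**Figure D5:**
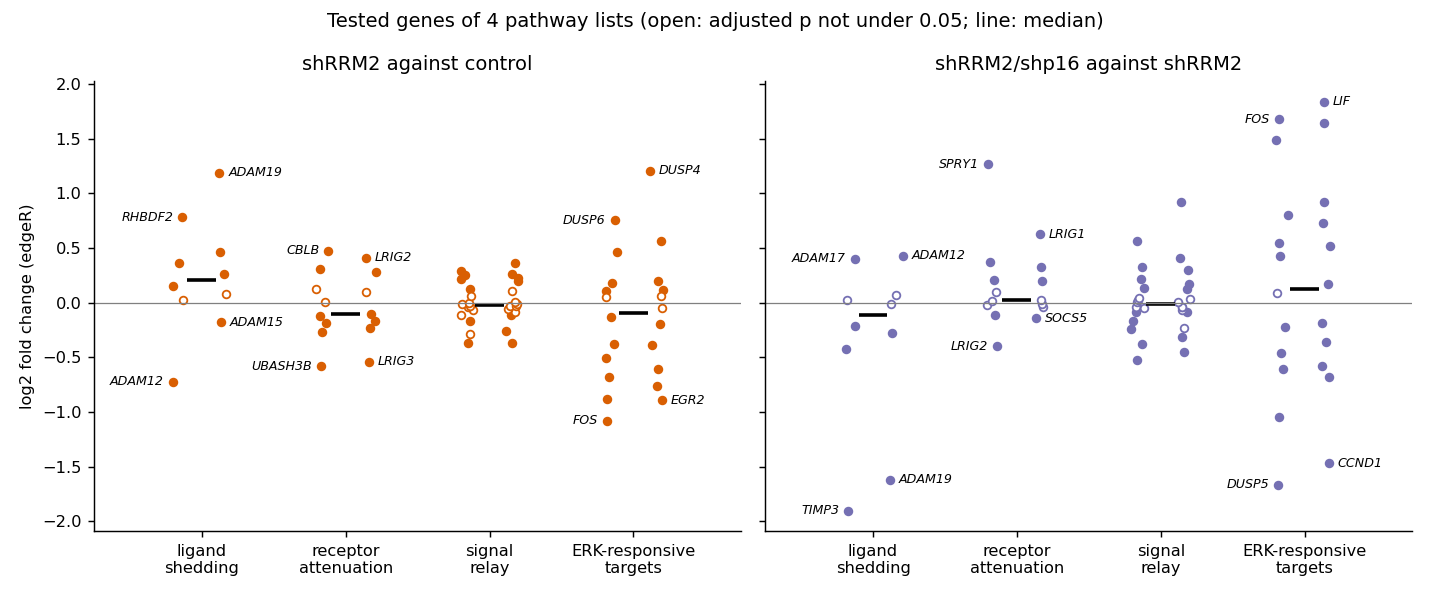
Log2 fold change (y axis, edgeR) of the tested genes in 4 pathway lists (x axis) for shRRM2 against control (left) and shRRM2/shp16 against shRRM2 (right). Each point is a gene, open where the adjusted p was not under 0.05, lines give the list medians, and names mark the 2 highest and 2 lowest genes past the threshold, where there were that many, in the lists other than signal relay. Medians lie between -0.11 and 0.21, with genes on both sides of 0 in each list.

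Among 11288 genes whose log2 CPM averaged at least 2, those nearest to AREG over the 9 libraries were C11orf96, EREG and G0S2, at distances of 0.435, 0.685 and 0.729 on the centred log2 scale. EREG had G0S2, C11orf96 and AREG as its nearest, at 0.537, 0.583 and 0.685. G0S2, an inhibitor of triglyceride lipase, was at 7.53, 6.45 and 106 CPM in control, shRRM2 and shRRM2/shp16. C11orf96 was at 2.46, 2.52 and 46.9 CPM. For HBEGF the nearest were ANKRD11, COPB2 and SPG7 (0.105, 0.119 and 0.130), and for EGFR they were SMG8, AGBL5 and ATXN7L3 (0.0721, 0.0837 and 0.0997). These distances rest on 3 groups of libraries and describe likeness of pattern only.

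The authors' deposited table gives its own fold changes for shRRM2/shp16 over shRRM2. In the authors' deposited table AREG was at 4.29, EREG at 4.19, NRG1 at 2.46 and ERRFI1 at -1.39 on the log2 scale, each with a q-value of 4.4e-04. EGFR was at 0.43 with a q-value of 0.0440 in the authors' deposited table. ERBB2 at -0.64 (q-value 0.0558) and HBEGF at -0.13 (q-value 0.154) were not past 0.05 in the authors' deposited table, whereas edgeR on the counts called both. ERBB3 was at 0.55 (q-value 0.610), TGFA at -2.23 (q-value 1) and BTC at 1.09 (q-value 1) in the authors' deposited table.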

How the data were processed

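RNA of 9 IMR90 libraries (3 control, 3 shRRM2, 3 shRRM2/shp16) was measured from ribosome-depleted stranded libraries, per the labels' protocols. The authors deposited raw counts per Ensembl gene for each library, in the layout of HTSeq. They also deposited a table of log2 RPKM values, found from the counts to be log2(x + 1) with x the RPKM divided by 1000. For shRRM2/shp16 over shRRM2 it adds a log2 fold change with p-value and q-value, per the file headers. TopHat2 2.0.9, Cufflinks 2.0.2, Cuffdiff and the GRCh38 build are named in the submitters' processing notes. The counter's settings, strand setting and annotation release are not given in the sources used here. 8 RPKM columns matched their counts in 100% of 8233 genes within 1%, and that of shRRM2 replicate c in 6.30%.

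The count test was edgeR 4.0.16 (R 4.3.3): filterByExpr kept 16561 genes (99.8% of counts), libraries were scaled by TMM, and all 9 entered 1 quasi-likelihood fit with 6 residual degrees of freedom. Tests were two-sided, with Benjamini-Hochberg adjustment over all tested genes and a threshold of 0.05. Tally lines naming no gene were left out. Reads carry no molecular identifiers, so low counts have at least counting error. Positions come from GENCODE release 29 (GRCh38). The pipeline was tested on simulated data. Alternatives were RLE factors, library totals, DESeq2 1.42.0, other filters, the 6 libraries compared, a replicate block, leaving out each library, and limma 3.58.1 on the RPKM values. Limma on the 8 matching columns was added after the data were seen.

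All 10 family genes are accounted for. The other pathway genes named are from the 2 highest and 2 lowest per list past the threshold, 1 of which is not reported here, and the nearest patterns are the 3 with the smallest Euclidean distance for AREG, EREG, HBEGF and EGFR. Which chromosome 4 genes are given values was decided after the values were seen. The family genes and lists were chosen with earlier results of these data known.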

Additional observations from a re-analysis of the deposited data

How the results depend on the processing

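Of 530 alternative log2 fold changes of the family genes, 484 kept their direction and side of the threshold, 25 lost their call, 3 gained one and 18 turned sign. The counts of called genes (7, 8 and 6) ranged over 6 to 7, 7 to 8 and 6 to 6 when each library was left out. For shRRM2 against control the count was 4 with limma on the deposited RPKM values, 4 with a pseudocount of 0.1 and 3 with genes at a mean RPKM of at least 1. The sign turned only for differences that had not passed, apart from EREG. AREG in shRRM2 against control ran from -0.0049 to 0.1393 when each library was left out, and was below 0 without control replicate c (-0.0016) and without shRRM2 replicate b. EREG there was at 0.0006, 0.043 and 0.0006 with limma on the 9 RPKM columns. HBEGF in shRRM2/shp16 against control was at 0.0929 with library totals, 0.01 with at least 10 counts in every library and 0.0007 in the 6 libraries. It was at 0.0006, 0.0928 and 0.0006 with limma on the 9 columns, at 0.0928 on the 8 matching columns, and at -0.0243 to 0.0128 with each library left out, above 0 without control replicate a and without shRRM2/shp16 replicate b (0.005). ERBB3 there was at 0.0202 with library totals, 0.0172 with limma at a pseudocount of 0.1 on 9 and on 8 columns alike, and -0.2759 to 0.2006 with each library left out, above 0 only without control replicate c. Values on the deposited log2(x + 1) scale are small because x is the RPKM divided by 1000. On the 8 columns, AREG passed in shRRM2 against control at 0.17 (adjusted p = 0.0338). Library totals moved the median of all genes in shRRM2/shp16 against control to 0.12 from 0.01. Letters did not pair the libraries: libraries of the same letter had correlated deviations of -0.02 to 0.05, and with the letter as a replicate block the counts of calls were 7, 8 and 6. BTC was tested only without a low-count filter, and TGFA and ERBB3 gave no value with the RPKM filter, nor did TGFA with at least 10 counts in every library or, for shRRM2/shp16 against control, in the fit of 6 libraries. Levels with RLE factors stayed within 1 SD in 30 of 30 cases, and those from the authors' RPKM values in 12 of 30. The depth limits TGFA, BTC and ERBB3, at 0 to 24 counts per library.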
